A study of Rattus norvegicus with 38 samples.

Results

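Peripheral blood mononuclear cells (PBMC) of rats that had received a heart transplant were compared between recipients that rejected the graft and recipients that accepted it. The comparison holds 14 of the 38 samples of the study, chosen by their sample labels: 5 allograft recipients (QR3 to QR7) and 9 isograft recipients (QR9, QR11, QR12, QR14, QR16, QR17, QR18, QR20 and QR21). Every donor heart came from a Dark Agouti (DA) rat and was joined to the abdominal vessels of the recipient. Allograft recipients were Brown Norway (BN) rats, isograft recipients were DA rats, and both were bled 6 days after the operation. The strains are inbred, with a mismatch in major histocompatibility antigens, and in this model allografts stop beating and reach a severe histologic grade of rejection by that day. All BN recipients rejected and all DA recipients accepted, so that strain and rejection cannot be told apart in the 14 recipients alone. For this reason the values of 3 untransplanted BN and 3 untransplanted DA rats, processed as a separate batch, are set beside them. Each sample is 1 animal and 1 Affymetrix RAE230 2.0 array.

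PBMC are the lymphocytes, monocytes and natural killer cells that a density gradient separates from most granulocytes and red cells. In rejection of a heart, T lymphocytes of the recipient recognize donor histocompatibility molecules, while monocytes and killer cells enter the graft from the blood. The RNA of such a preparation reflects which cells are present and what each of them transcribes, and in bulk samples fewer cells of a type and less RNA per cell cannot be told apart. Red cells and platelets are not part of the mononuclear fraction, but their precursors and fragments carry RNA and can remain in it.

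Levels are given as the deposited signal divided by the median signal of the same array, in units of array medians, and differences as log2 fold changes of allograft over isograft recipients with their standard error (SE) from the fitted model. The median signal was 26.6 to 36.8 on the 14 arrays. Allograft recipient QR3 stood apart: its median correlation with its group was 0.932, against 0.945 to 0.949 for the other 4, and it was the highest of all 14 arrays by more than 1 on the log2 scale on 109 probesets and the lowest on 281 (at most 15 and 55 on any other array). Isograft recipient QR11 had the highest ratio of 3′ to 5′ GAPDH signal, a sign of RNA quality, at 1.98 (0.986 to 1.42 on the others). Markers of T cells, B cells, monocytes, killer cells and platelets lay above the array median on all 14 arrays. Of the heart muscle markers, Myh6 and Tnni3 were below it on all 14 and Nppa reached it on 1.

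A call of differential expression needed 3 things: an adjusted p (Benjamini-Hochberg) no higher than 0.10, a difference of 3-fold or more, and a level of 1 array median or more on 50% of the arrays in either group. Of 31042 probesets, 323 were called (1.04%), with 125 higher (0.403%) and 198 lower (0.638%) in allograft recipients. Of the 323, 219 map to a single gene symbol and represent 199 genes, 7 map to several and 97 to none. The 5 arrays and the 9 arrays did not overlap for 257 of them, beside 5.57% of all probesets. Without the fold and signal criteria 5786 probesets (18.6%) passed the adjusted p, 2066 higher (6.66% of all) and 3720 lower, so that 35.7% of those that passed were higher. This share was 49.5% after quantile normalization and 55.6% on the signals as deposited, while of the called probesets 38.7%, 43.8% and 48.6% were higher. The median log2 fold change over all genes was -0.06 on the array median scale, 0.01 after quantile normalization and 0.07 on the signals as deposited.

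Enzymes, an annexin and myeloid receptors were among the 12 genes with a single symbol that rose most without overlap. The largest increase of any called probeset, 99.2-fold, was on a probeset with several RT1 symbols. Nqo2, a quinone reductase, measured 7.79, 5.25, 6.12, 4.71 and 4.5 array medians in QR3 to QR7. In the isograft recipients it ran from 0.0303 to 0.219 (median 0.0925). Every allograft recipient was above every isograft recipient, a 59.4-fold difference (log2 fold change 5.89, SE 0.34, adjusted p = 2.28e-09) whose size rests on isograft signals far below the array median. Ass1, the argininosuccinate synthase of the urea cycle and of arginine recycling, measured 11.3, 11, 15.5, 10.6 and 11.7 array medians against 0.255 to 1.86 (median 0.756), which is 15.6-fold higher (3.96, SE 0.32, adjusted p = 1.64e-07). Anxa3, a calcium-dependent membrane-binding protein, measured 17.6, 14.4, 17.5, 11.5 and 12.7 against 0.741 to 1.87 (median 1.01). It was 13.8-fold higher by this probeset (3.78, SE 0.19), while 2 of its other 3 probesets passed too (0.68, SE 0.15 and 2.75, SE 0.37) and 1 did not (0.24, SE 0.25). Pira2, an activating immunoglobulin-like receptor of myeloid and B cells, was 28.3-fold higher (4.82, SE 0.47) and by its other probeset higher by 3.09 on the log2 scale. In untransplanted rats BN was above DA as well. The folds there were 22.5 for Nqo2, 14.05 for Ass1, 15.3 for Anxa3 and 42.4 for Pira2.

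Receptors and mediators of myeloid cells followed. Cd33, a sialic acid receptor of myeloid cells, measured 2.92, 2.12, 4.67, 2.73 and 2.83 array medians in allograft recipients and 0.0315 to 0.900 (median 0.541) in isograft recipients, a 10.4-fold difference (3.38, SE 0.65, adjusted p = 0.00171). Il1rn, the secreted antagonist of the interleukin-1 receptor, measured 8.50, 7.83, 4.64, 6.05 and 6.2 against 0.149 to 2.74 (median 2.08), with a larger error (3.06, SE 0.79, adjusted p = 0.0145). Ptgr1, a prostaglandin reductase, was 8.32-fold higher (SE 0.32), and Fxyd2, a regulator of the sodium pump, was 9.90-fold higher (SE 0.20) at 26.7 to 37.9 against 1.94 to 4.31 array medians. The remaining genes among the 12 were LOC100910237 (25.3-fold), Myo5c, a class V myosin (16.9-fold by 1 of 3 probesets, while the other 2 did not pass), Strip2 (7.92-fold) and RT1-Ba, which is given with the histocompatibility genes. The folds of LOC100910237, Myo5c and Strip2 rest on isograft means far below the array median, and their signals were too low for a call when the level required was raised to the 65th percentile. Untransplanted BN rats were above DA rats 8.86-fold for Fxyd2, 3.89-fold for Ptgr1 and 50.1-fold for LOC100910237. Cd33, Il1rn, Myo5c and Strip2 were higher there too but did not pass (limma adjusted p of 0.155 to 0.625).

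**Figure D1:**
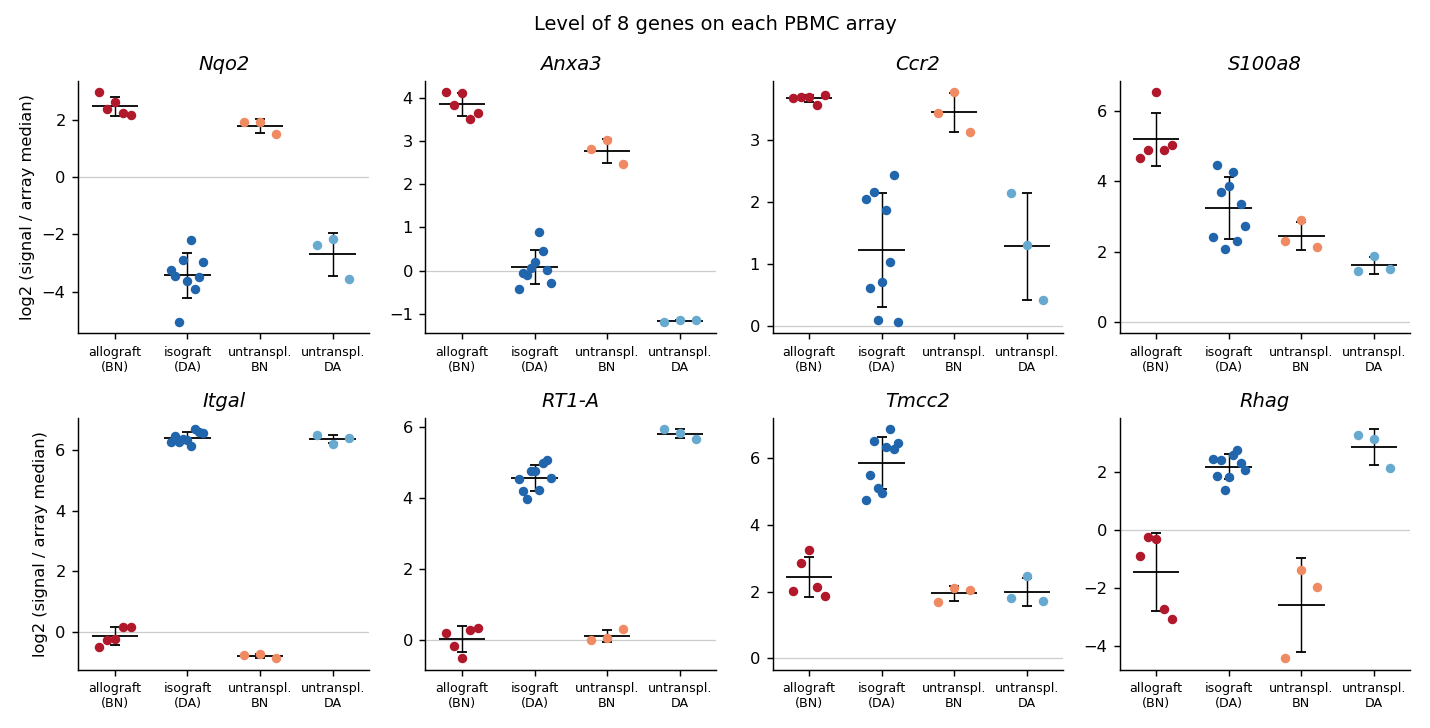
Level of 8 genes on each of the 20 PBMC arrays as log2 of signal over array median (vertical axes, which differ between panels), for 3 untransplanted rats of each strain, 5 allograft recipients and 9 isograft recipients. Points are arrays, horizontal lines are group means and bars are SD. Nqo2, Anxa3, Ccr2, Itgal, RT1-A and Rhag separate BN from DA rats with and without a transplant, while Tmcc2 is high in the isograft recipients alone (26.7 to 117 array medians) and S100a8 is highest in allograft recipient QR5 (93.2).

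Among genes with a single symbol, Bglap, Itgal and Serpinb11 fell most, while the largest decrease of any called probeset, 95.8-fold, was on a probeset with no symbol. Itgal, the alpha chain of the leukocyte integrin LFA-1, measured 0.703, 0.828, 0.853, 1.12 and 1.11 array medians in allograft recipients. It ran from 70.6 to 104 (median 83.1) in isograft recipients, so that the groups lay far apart with little spread within either (94.2-fold lower, log2 fold change -6.56, SE 0.13, adjusted p = 1.21e-16). In untransplanted rats it measured 0.542 to 0.599 in BN and 74.5 to 90.5 in DA. A single probeset represents it, and equal binding of its probes to the transcripts of both strains was not tested. Bglap, the bone matrix protein osteocalcin, measured 0.0200 to 0.0290 against 1.56 to 3.26 (94.4-fold lower, SE 0.40), and Serpinb11 measured 0.0291 to 0.302 against 5.20 to 10.2 (84.5-fold lower, SE 0.43). Both folds rest on allograft signals near the bottom of the array. Dguok, the mitochondrial deoxyguanosine kinase, was 25.7-fold lower by a probeset (-4.68, SE 0.21), while its brighter probeset differed by -0.91 (SE 0.15, adjusted p = 0.000296). Mest (14.5-fold), Asb11 (13.5-fold), Prss3, a trypsin (13.1-fold), and Tmcc2 (10.8-fold) were also among the 12 that fell most without overlap. As for Bglap, the folds of Dguok, Mest, Asb11 and Prss3 rest on allograft signals below the array median. Untransplanted BN rats were below DA rats too for Bglap (23.45-fold), Serpinb11 (49.9-fold), Dguok (39.0-fold), Mest (5.38-fold) and Asb11 (6.28-fold). Prss3 and Tmcc2 did not pass there (limma adjusted p = 0.94 and 0.98). The other members of the 12 were RT1-A, Rhag, Ifi27 and Mx2.

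Histocompatibility genes differed in both directions, and probesets of a single gene disagreed. The rat complex RT1 encodes class I molecules, which present peptides to CD8 T cells on nearly all cells, and class II molecules, which B cells and myeloid cells use to present peptides to CD4 T cells. RT1-A, a classical class I gene, measured 1.14, 0.893, 0.697, 1.21 and 1.26 array medians in allograft recipients and 15.8 to 33.5 (median 23.8) in isograft recipients, 23.4-fold lower (-4.55, SE 0.19, adjusted p = 1.16e-11). It has a single probeset, RT1 genes vary between strains, and equal probe binding was not tested for it either. RT1-N2, a nonclassical class I gene, was 11.2-fold higher (3.49, SE 0.52), at 0.608 to 1.07 against 0.0308 to 0.376, and was not called because its signal is low. Over 26 measured genes of class I and antigen processing, 9 fell, among them RT1-CE12 (-1.01, SE 0.11) and RT1-CE10 (-0.97, SE 0.17), RT1-N2 alone rose and 16 did not pass. These counts, like all counts of list members below, use an adjusted p of at most 0.10 and the brightest probeset of each gene. Counts in recipients on the array median scale are to be read against 7.72% higher and 15.2% lower among all 14217 genes. The background was 1969 higher and 1905 lower of the 14217 with quantile normalization, and 1998 and 1747 on the signals as deposited. For untransplanted rats it was 1112 higher and 1510 lower of 31042 probesets. After quantile normalization 7 class I genes fell and 6 rose.

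For RT1-Ba, the class II alpha chain of the B locus, 4 probesets gave 2 directions. A pair of them was higher by 5.50 (SE 0.29) and 4.78 (SE 0.14) on the log2 scale, at means of 90.3 and 89.0 array medians in allograft recipients against 1.99 and 3.24. The other pair was lower by 0.73 (SE 0.23, adjusted p = 0.0425, and 0.112 without QR4) and 2.50 (SE 0.22, adjusted p = 5.87e-07). The RT1-Ba value of any probeset may therefore not give the level of the transcript. Genes around the class II molecules rose. RT1-DMa, a chaperone that loads class II molecules, measured 51.2, 31.5, 25.3, 36.1 and 33.6 array medians against 8.13 to 14.4 (median 9.60), 3.46-fold higher (1.79, SE 0.17, adjusted p = 1.02e-06). Its partner RT1-DMb was 2.39-fold higher (1.26, SE 0.14) and Ciita, the master regulator of class II transcription, 2.27-fold (1.19, SE 0.17), both without overlap. Of 14 class II genes 5 rose, 1 fell (RT1-Ba, by its probeset at -0.73) and 8 did not pass. After quantile normalization 9 rose and 1 fell. By the probeset with the lowest p of each gene, 6 rose and none fell.

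**Figure D2:**
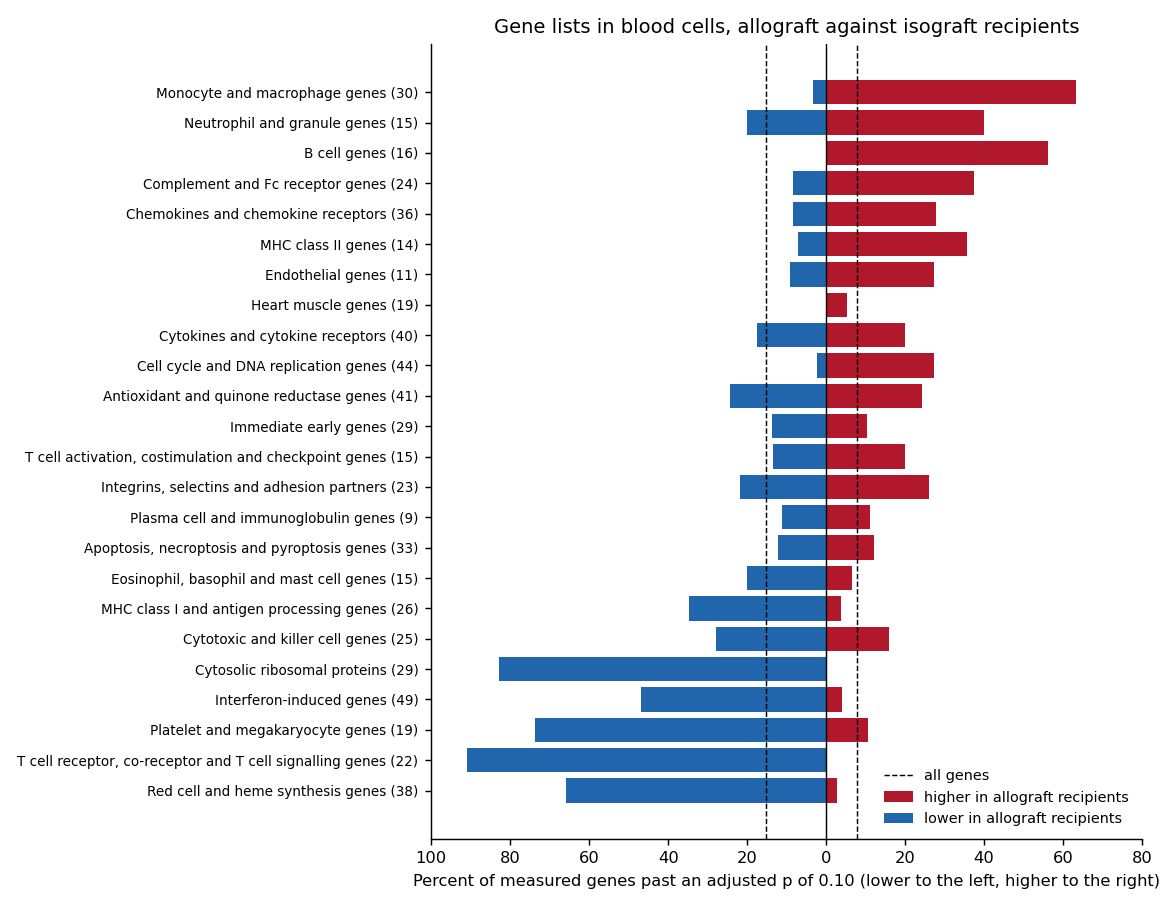
Percent of the measured genes of 24 lists (number of genes in parentheses) that were higher (right) or lower (left) in allograft than in isograft recipients at an adjusted p of at most 0.10, ordered by the median log2 fold change of the list. Dashed lines mark the same percentages over all 14217 genes, 7.72% higher and 15.2% lower, and the T cell list reaches 90.9% lower while the monocyte list reaches 63.3% higher.

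Genes of the T cell receptor complex and of T cell signaling were lower in allograft recipients, by modest amounts. Of 22 measured genes, 20 fell, none rose and 2 did not pass (Cd4 and Cd28), under the array median scale and after quantile normalization alike, and the median log2 fold change was -0.81 (-0.65 after quantile normalization) beside -0.06 over all genes. Members named as exceptions to a count, as Cd4 and Cd28 here, were picked after their values were seen. Cd5, a receptor that dampens T cell signaling, measured 18.2, 12.6, 11.3, 12.8 and 9.93 array medians against 23.4 to 45.3 (median 34.4), 2.66-fold lower (-1.41, SE 0.17, adjusted p = 1.19e-05). Cd8a, the co-receptor of cytotoxic T cells, measured 26.3, 18.1, 24.3, 16.1 and 13.3 against 38.0 to 62.0 (median 46.2), 2.59-fold lower (-1.37, SE 0.17). Neither gene overlapped between the groups. Il7r, the interleukin-7 receptor of resting T cells, was 2.22-fold lower (SE 0.16), and the adhesion receptor Cd2 2.13-fold lower (SE 0.17) with QR3 (13.1) inside the isograft range of 11.6 to 23.3. The mean level of the 22 genes was 3.57 to 4.23 (log2) in allograft recipients and 4.26 to 4.98 in isograft recipients, with no overlap. Untransplanted BN rats lay at 4.69 to 4.80 and untransplanted DA rats at 5.54 to 5.66, and 16 of the 22 genes fell in that comparison too (median -0.75).

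Among costimulatory and activation genes no common direction was seen. Cd40, the receptor through which T cells activate B cells and monocytes, measured 9.04, 7.44, 6.80, 8.66 and 7.03 array medians against 1.5 to 3.27 (median 2.58), 3.26-fold higher (1.71, SE 0.19, adjusted p = 5.71e-06). Its ligand Cd40lg was 1.69-fold lower, with an adjusted p = 0.0798 that was above 0.10 without any of 9 arrays, among them QR3 (0.187). Ctla4, the inhibitory receptor of activated and regulatory T cells, was 1.78-fold higher (0.83, SE 0.22, adjusted p = 0.0167), and Il2ra, the alpha chain of the interleukin-2 receptor, 1.59-fold lower (-0.67, SE 0.20, adjusted p = 0.0308, and 0.102 without QR5). Of 15 measured genes of this list 3 rose and 2 fell.

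B cell genes were higher in allograft recipients. Of 16 measured genes 9 rose and none fell (12 and 0 after quantile normalization, 7 and 0 without QR3), with a median log2 fold change of 0.45. In untransplanted rats 4 rose and none fell, with a median of 0.48. Ms4a1, the B cell surface protein CD20, measured 51.8, 43.0, 33.2, 40.5 and 35.1 array medians against 15.5 to 32.2 (median 23.1), 1.69-fold higher (0.76, SE 0.16, adjusted p = 0.0038). Btk, the tyrosine kinase of B cell receptor signaling, was 1.68-fold higher (SE 0.12) without overlap, while Ebf1, a B cell transcription factor (2.04-fold), and Cd79b, a chain of the B cell receptor (1.86-fold), overlapped through QR5 (3.62 and 13.6 array medians against isograft maxima of 3.79 and 20.6). Of 9 measured plasma cell and immunoglobulin genes 1 rose, 1 fell and 7 did not pass. Xbp1 was the one that rose (1.54-fold, 0.63, SE 0.14). Jchain, which joins secreted immunoglobulin units in plasma cells, was the one that fell. It measured 9.64, 9.31, 5.16, 6.48 and 6.47 against 8.78 to 27.4 (median 15.0), 2.25-fold lower (-1.17, SE 0.23, adjusted p = 0.00176). Among untransplanted rats it was higher in BN by 0.95 (SE 0.33, adjusted p = 0.114), and the 2 differences departed from each other by -2.11 (SE 0.40, adjusted p = 0.0392).

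Monocyte and macrophage genes were higher in allograft recipients. Of 30 measured genes 19 rose, 1 fell (the lysozyme gene Lyz2, -0.39) and 10 did not pass, with a median log2 fold change of 0.83. Without QR3, 18 rose and 2 fell. Ccr2, the chemokine receptor that draws monocytes into inflamed tissue, measured 12.8, 12.9, 12.9, 11.8 and 13.1 array medians in allograft recipients, a narrow range. In isograft recipients it ran from 1.05 to 5.42 (median 2.04), which gives 5.44-fold (2.44, SE 0.39, adjusted p = 0.000286). Itgam, the alpha chain of the integrin Mac-1, was 2.30-fold higher (1.20, SE 0.24) without overlap. The mean level of the list was 3.29 to 4.22 (log2) in allograft and 2.49 to 3.06 in isograft recipients, again with no overlap, beside 2.46 to 2.98 in untransplanted BN and 2.08 to 2.68 in untransplanted DA rats. In the untransplanted comparison 15 of the 30 rose and 1 fell.

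The 3 chains of complement C1q, the recognition unit of the classical pathway that macrophages secrete, rose but varied widely among the 5 allograft recipients. C1qa measured 11, 3.52, 0.698, 8.13 and 4.33 array medians in QR3 to QR7 and 0.0935 to 1.63 (median 0.907) in isograft recipients, 5.69-fold higher (2.51, SE 0.72, adjusted p = 0.0263). C1qb measured 4.34, 1.15, 0.0619, 3.59 and 1.06 against 0.0301 to 0.265 (median 0.101), and C1qc 5.34, 2.06, 0.564, 3.32 and 1.71 against 0.290 to 1.11 (median 0.432), 10.8-fold and 4.13-fold higher (log2 fold changes 3.43 and 2.05, SE 0.94 and 0.52, adjusted p = 0.0200 and 0.0137). For each chain QR3 was highest, QR6 next and QR5 lowest, and QR5 lay within the isograft range. In untransplanted rats BN was not above DA for any chain (-1.25, -1.54 and -1.24, none past the test), although the departure of the recipients did not pass either (3.76, 4.97 and 3.28, adjusted p of 0.387, 0.378 and 0.243). Ms4a7, a membrane protein of monocytes and macrophages, was likewise highest in QR3, next in QR6 and lowest in QR5. It measured 4.14, 1.86, 0.0908, 3.00 and 1.86 in QR3 to QR7, which spans the isograft range of 1.11 to 1.92, while untransplanted BN rats measured 0.0308 to 0.104 and untransplanted DA rats 2.34 to 2.52. The difference between recipients did not pass (-0.16, SE 0.61, adjusted p = 0.904), and it departed from that of untransplanted rats by 5.21 (SE 1.09, adjusted p = 0.0668). Without QR5 the difference between recipients was 0.80 (adjusted p = 0.0627).

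**Figure D3:**
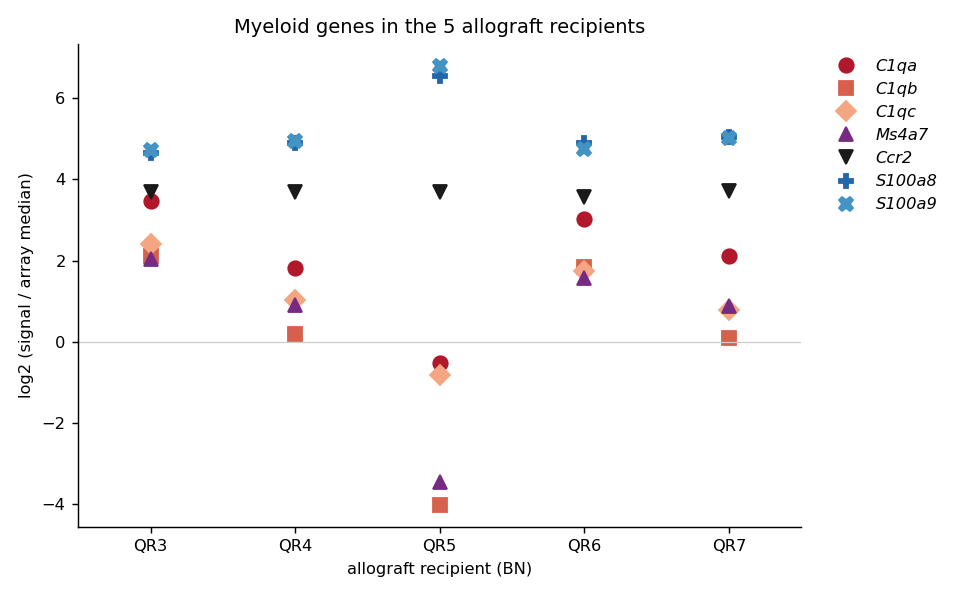
Level of 7 myeloid genes in each of the 5 allograft recipients as log2 of signal over array median. The C1q chains and Ms4a7 are lowest in QR5 and highest in QR3, S100a8 and S100a9 are highest in QR5, and Ccr2 lies between 11.8 and 13.1 array medians in all 5.

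Among other Fc receptor and complement genes, Fcgr2b, the inhibitory Fc receptor, varied less among allograft recipients than the C1q chains. It measured 30.4, 24.9, 44.3, 24.7 and 26.7 array medians against 8.09 to 14.2 (median 10.0), 2.95-fold higher (1.56, SE 0.16, adjusted p = 2.87e-06). Of 24 complement and Fc receptor genes, which include the C1q chains, 9 rose, 2 fell and 13 did not pass.

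Among neutrophil and granule genes the alarmins S100a8 and S100a9 rose while granule peptides fell. S100a8 measured 25.3, 29.7, 93.2, 29.8 and 32.9 array medians in allograft recipients and 4.23 to 22.1 (median 10.2) in isograft recipients, 3.90-fold higher without overlap (1.96, SE 0.40, adjusted p = 0.00267). S100a9 measured 26.6, 30.6, 111, 26.7 and 32.7 against 4.15 to 42.6 (median 9.93), 3.55-fold higher (1.83, SE 0.50, adjusted p = 0.0192), and its fold was below 3 without QR5. Both proteins also belong to monocytes, and QR5 was the highest array for both. Camp, the cathelicidin of neutrophil granules, measured 0.0308 to 0.251 against 0.0509 to 1.37 and Np4, a defensin, 0.0694 to 0.152 against 0.115 to 3.86. Both were lower (-2.96, SE 0.65 and -2.43, SE 0.65), with medians below the array median in both groups. Of 15 measured genes of the list 6 rose, 3 fell and 6 did not pass. The mean level of the list was 0.97 (log2) in QR5 against -0.18 to 0.03 in the other allograft recipients, and -0.84 to 1.12 in isograft recipients with QR11 highest, and its part in these results was not tested.

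Killer cell and cytotoxic genes gave smaller and mixed differences. Xcl1, a chemokine of killer and CD8 T cells, measured 1.97, 1.42, 1.66, 1.75 and 1.36 array medians against 2.54 to 9.15 (median 4.5), 2.96-fold lower (-1.57, SE 0.24, adjusted p = 0.000195). The killer cell receptors Klrb1b (2.32-fold, SE 0.24) and Ncr3 (1.98-fold, SE 0.18) and the protease inhibitor Cst7 (1.88-fold, SE 0.18) were higher, all without overlap. Gzmb, the protease granzyme B, measured 29.6, 15.6, 20.2, 15.8 and 11.8 against 19.5 to 27.5 (median 23.8) by its brighter probeset. The difference of -0.41 (SE 0.18) did not pass (adjusted p = 0.158). It passed without QR3, the highest of the 14 arrays for this probeset (-0.59, adjusted p = 0.0195), and the other probeset was lower by 0.64 (SE 0.19, adjusted p = 0.0280). In untransplanted rats the brighter probeset was lower in BN by 1.74 (SE 0.27, adjusted p = 0.000522), and its departure of 1.33 did not pass (adjusted p = 0.144). The other probeset was lower by 2.24 there and by 0.64 in recipients, and the test of its departure is not given here. Over 25 measured genes 4 rose, 7 fell and 14 did not pass in recipients, beside 1 and 14 in untransplanted rats.

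Red cell and heme synthesis genes were lower in allograft recipients, and isograft recipients had the highest levels of the 4 groups. Of 38 measured genes 25 fell, 1 rose (the embryonic globin Hbe1, 1.45) and 12 did not pass. The median log2 fold change was -1.35 (-1.13 after quantile normalization, -1.25 without QR3). Rhag, a red cell membrane glycoprotein, measured 0.538, 0.844, 0.807, 0.151 and 0.119 array medians against 2.66 to 6.88 (median 5.01), 12.6-fold lower (-3.65, SE 0.51, adjusted p = 7.94e-05). Epb42, a protein of the red cell membrane skeleton, measured 0.0577, 0.696, 1.20, 0.243 and 0.428 against 1.24 to 8.01 (median 2.76), 7.55-fold lower (-2.92, SE 0.62). Selenbp1, a selenium-binding protein of high abundance in red cells, measured 1.19, 2.35, 3.17, 1.61 and 1.00 against 3.52 to 19.2 (median 10.5), 5.06-fold lower (-2.34, SE 0.45), and the carbonic anhydrase Car1 was 9.11-fold lower with overlap (-3.19, SE 0.76). On the mean of the list, allograft recipients lay at 1.16 to 2.15 (log2), with QR4 (1.95) and QR5 (2.15) highest. Isograft recipients QR12, QR17, QR18, QR20 and QR21 lay at 3.06 to 3.51, while QR9, QR14, QR16 and QR11 lay at 2.02 to 2.51. The groups overlapped only where QR14 fell below QR5. Untransplanted BN and DA rats lay lower, at 0.35 to 1.03 and 0.90 to 1.35, and in their comparison 1 gene of the 38 fell and 1 rose, with a median of -0.09. Rhag, the gene that fell, measured 0.0465 to 0.386 in untransplanted BN and 4.46 to 9.88 in DA rats. The departure of the recipients from the untransplanted rats passed the adjusted p in limma for 0 of the 38 genes, beside 0.348% of all probesets. It passed an unadjusted p of 0.05 for 10 of the 38, beside 2595 of all 31042 probesets.

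**Figure D4:**
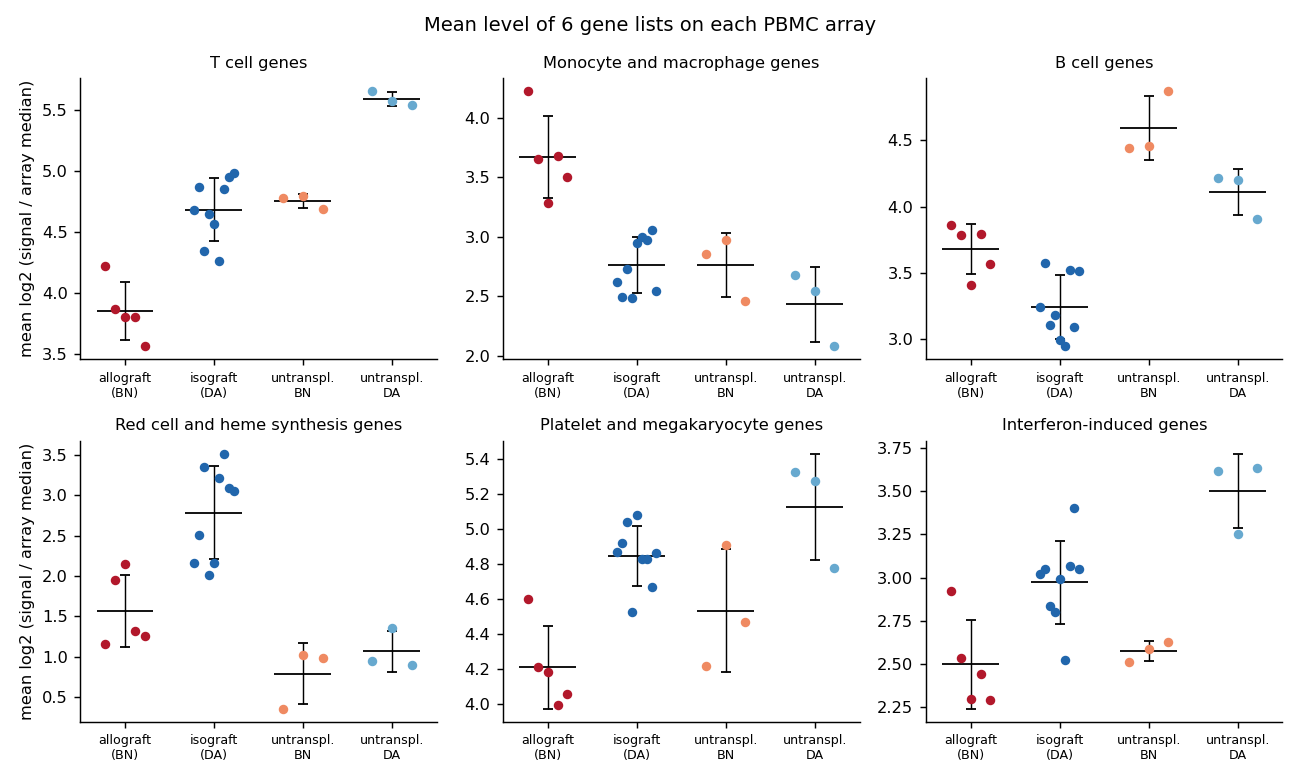
Mean level of the genes of 6 lists on each of the 20 PBMC arrays (vertical axes, mean of log2 signal over array median, with different ranges) for the 4 groups. Points are arrays, horizontal lines are group means and bars are SD. The T cell list is lower and the monocyte list higher in allograft than in isograft recipients with no overlap, and the red cell list reaches 3.51 in isograft recipients against at most 2.15 in any other group.

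Platelet genes fell for the most part, with a chemokine as the main exception. Gp5, a subunit of the platelet receptor for von Willebrand factor, measured 4.73, 2.65, 1.65, 3.15 and 2.32 array medians against 6.62 to 12.4 (median 10.2), 3.56-fold lower (-1.83, SE 0.23, adjusted p = 1.99e-05). Itga2b, the alpha chain of the fibrinogen receptor, measured 35.0, 17.1, 15.4, 15.1 and 14.2 against 49.6 to 82.1 (median 58.2), 3.24-fold lower (-1.70, SE 0.20), and Gp9 was 2.29-fold lower. Ppbp, a chemokine stored in platelet granules, measured 37.5, 28.1, 26.9, 23.0 and 23.3 against 8.12 to 12.9 (median 9.11), 2.82-fold higher (1.5, SE 0.17, adjusted p = 1.11e-05). Of 19 measured genes 14 fell, 2 rose (Ppbp and the adhesion receptor Selp) and 3 did not pass. The median log2 fold change was -0.64 in recipients and -0.62 in untransplanted rats, where 8 fell and 1 rose. In untransplanted rats Itga2b differed by -1.07, Ppbp by 1.20, Gp5 by -0.33 and Gp9 by -0.32. The Itga2b call needed the array median scale: its fold was below 3 after quantile normalization and on the signals as deposited.

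Many genes that interferon induces were lower in allograft recipients, and a similar number were lower in untransplanted BN than DA rats. Type I interferon acts through a factor complex that binds a short promoter element, the interferon-stimulated response element, and its targets restrict viruses. Of 49 measured genes 23 fell, 2 rose and 24 did not pass (22 fell and 4 rose after quantile normalization). The median log2 fold change was -0.44 in recipients and -0.84 in untransplanted rats, where 24 fell and 1 rose, and the departure passed for 2 of the 49. Ifi27, an interferon-induced protein of mitochondria and the nuclear envelope, measured 12.4, 7.39, 6.19, 7.59 and 6.72 array medians against 57.6 to 105 (median 91.0), 11.1-fold lower (-3.48, SE 0.16, adjusted p = 1.06e-10). Mx2, an antiviral GTPase, was 11-fold lower by a probeset (-3.46, SE 0.24) at 0.359 to 0.653 against 2.52 to 7.60, and lower by 1.12 (SE 0.19) by its brighter probeset. Ifit1, which binds foreign RNA, measured 1.35, 1.18, 1.51, 1.35 and 1.61 against 3.73 to 12.3 (median 7.49), 4.75-fold lower (-2.25, SE 0.29). Rsad2, the antiviral protein viperin, measured 12.1, 31.7, 44.6, 16.6 and 14 against 38.4 to 127 (median 90.3), 3.41-fold lower with QR5 inside the isograft range, and its fold was below 3 without QR3. Oas1b, an oligoadenylate synthetase, was higher (2.25, SE 0.69, adjusted p = 0.0382), at 0.239 to 0.800 against 0.0268 to 0.437 array medians and thus below the array median in both groups.

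The promoters of these genes show the element that many of them share. Windows of 250 bases before the gene start, from RefSeq on the GRCr8 assembly of the BN strain, were available for 37 of the 49 genes, Ifit1 not among them. The letters GAAA, any 2 bases and GAAA again, read on both strands (TTTC, any 2 bases and TTTC on the other), occurred in 24 of the 37 (64.9%), beside 3.41% of 33469 windows of the same length. Of the 24 genes with a match 11 fell and 1 rose, and of the 13 without a match 4 fell and 1 rose. The windows of Ifi27 and Rsad2, both called, of Ifit3 (-1.53, SE 0.26) and Irf7 (-1.52, SE 0.16), which also fell, and of Oas1b, which rose, are shown with the matches in capitals. A match is a description of letters in the BN genome and says nothing of binding or of the DA sequence. The windows are given 5′ to 3′ on the strand of the gene.
Ifi27 (chr6:128355062-128355311, plus strand): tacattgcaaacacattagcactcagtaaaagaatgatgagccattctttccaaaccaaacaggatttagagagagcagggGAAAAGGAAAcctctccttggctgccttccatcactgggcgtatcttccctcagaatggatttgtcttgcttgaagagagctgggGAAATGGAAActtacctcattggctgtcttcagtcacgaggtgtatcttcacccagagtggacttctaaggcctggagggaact
Rsad2 (chr6:48788121-48788370, minus strand): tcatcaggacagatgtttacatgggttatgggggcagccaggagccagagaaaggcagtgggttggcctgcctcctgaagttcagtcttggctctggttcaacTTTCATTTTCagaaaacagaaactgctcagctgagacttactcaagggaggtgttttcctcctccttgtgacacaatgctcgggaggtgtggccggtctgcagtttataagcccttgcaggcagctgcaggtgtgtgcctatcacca
Ifit3 (chr1:241527076-241527325, plus strand): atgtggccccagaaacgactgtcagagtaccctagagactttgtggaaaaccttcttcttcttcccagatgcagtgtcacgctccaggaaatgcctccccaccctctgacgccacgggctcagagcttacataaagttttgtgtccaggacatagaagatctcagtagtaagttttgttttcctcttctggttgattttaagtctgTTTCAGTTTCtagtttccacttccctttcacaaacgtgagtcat
Irf7 (chr1:205800024-205800273, minus strand): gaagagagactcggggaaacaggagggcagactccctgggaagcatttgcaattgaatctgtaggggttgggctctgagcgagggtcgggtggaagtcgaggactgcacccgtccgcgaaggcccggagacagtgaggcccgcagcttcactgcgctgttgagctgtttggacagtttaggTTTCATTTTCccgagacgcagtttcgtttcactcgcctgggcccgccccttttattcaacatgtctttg
Oas1b (chr12:41395853-41396102, minus strand): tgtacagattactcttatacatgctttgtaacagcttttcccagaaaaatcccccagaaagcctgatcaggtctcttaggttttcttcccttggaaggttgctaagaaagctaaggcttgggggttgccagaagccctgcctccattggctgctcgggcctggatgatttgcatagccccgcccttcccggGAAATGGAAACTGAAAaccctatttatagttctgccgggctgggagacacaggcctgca
In Ifi27 the matches start 169 and 84 bases before the gene start, in Rsad2 147, in Ifit3 44 and in Irf7 69 bases before it. The 2 matches of Oas1b overlap, at 59 and 53 bases.

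Chemokine and cytokine genes differed in both directions. Ccl9, a chemokine of myeloid cells, measured 2.81, 2.06, 1.63, 1.98 and 1.94 array medians against 0.0874 to 0.554 (median 0.358), 6.87-fold higher (2.78, SE 0.42, adjusted p = 0.000187). It was 1.57 to 1.92 in untransplanted BN rats and 0.0391 to 0.235 in DA rats. Ccr4, a receptor of helper and regulatory T cells, was 3.41-fold higher (1.77, SE 0.27), with a fold below 3 without QR3. Of 36 chemokine and receptor genes 10 rose, 3 fell and 23 did not pass. Il18, which drives interferon gamma production, measured 10.2, 7.47, 9.75, 6.41 and 7.35 against 1.29 to 2.76 (median 1.99), 4.05-fold higher (2.02, SE 0.17, adjusted p = 3.51e-07). Of 40 cytokine and receptor genes 8 rose and 7 fell. Adhesion genes were split, with 6 of 23 higher and 5 lower. Besides Itgal, the integrin chain Itga6 (3.16-fold, SE 0.17) and the junction molecule F11r (2.94-fold, SE 0.18) were lower, and Itga6 also had a fold below 3 after quantile normalization and on the signals as deposited.

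Antioxidant genes were divided and cell cycle genes leaned upward. Of 41 antioxidant genes 10 rose and 10 fell (16 and 9 after quantile normalization). Besides Nqo2, the glutathione transferases Gstt2 (3.46-fold lower, SE 0.19) and Gsto1 (2.12-fold lower, SE 0.13) and the secreted peroxidase Gpx3 (3.38-fold lower, SE 0.20) differed, none of them with overlap, and the fold of Gstt2 was below 3 without QR3. A weaker Gstt2 probeset went the other way (1.26, SE 0.42, limma adjusted p = 0.0537), at means of 0.587 against 0.245 array medians. Of 44 cell cycle genes 12 rose, 1 fell (the replication factor Mcm7) and 31 did not pass. Ccna2, the cyclin of S phase and mitotic entry, measured 1.44, 1.36, 0.852, 1.68 and 1.36 against 0.554 to 0.851 (median 0.680), 1.85-fold higher (0.89, SE 0.18, adjusted p = 0.00249), and Aurkb, a mitotic kinase, 1.77-fold higher (0.82, SE 0.16). Prc1, a protein of the mitotic spindle, was 2.29-fold higher (1.20, SE 0.21). Without QR3, which had the highest mean level of the list (1.32 against 0.81 to 1.08 in the other 4), 8 genes rose and 2 fell. In untransplanted rats none of the 44 passed the adjusted p in limma. An unadjusted p under 0.05 was found for 11 of them, beside 5691 of all 31042 probesets. Ccna2, Aurkb and Prc1 differed in untransplanted rats by -0.02, 0.44 and 0.91 on the log2 scale. The departure of the recipients passed the adjusted p in limma for 0 of the 44 genes, beside 0.348% of all probesets. Of 29 cytosolic ribosomal proteins 24 fell (median -0.42) on the array median scale and 23 (median -0.29) on the signals as deposited, but after quantile normalization 1 fell and the median was -0.01.

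Most probesets called between recipients differed in the direction of the strain. In untransplanted rats 325 probesets were called between BN and DA (1.05%) and 2622 (8.45%) passed the adjusted p alone. Of the 323 probesets called in recipients 139 were called in both comparisons, 43.0% of the former list and 42.8% of the latter, and all 139 had the same direction. A further view counts direction alone: 298 of the 323 had the same sign in untransplanted rats, 202 of them past the adjusted p, and of the 25 with the opposite sign none passed it in limma (1 at an unadjusted p under 0.05). The share of all probesets with the same sign in both comparisons was not counted, so the 298 have no background beside them. The 2 comparisons share no animal. Tested directly, the difference between recipients departed from that between untransplanted rats for 108 of 31042 probesets (0.348%) at an adjusted p of at most 0.10, 66 upward and 42 downward. Of the 323 called, 12 departed, 8 of them with the larger difference in recipients and 4 with the larger difference in untransplanted rats.

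**Figure D5:**
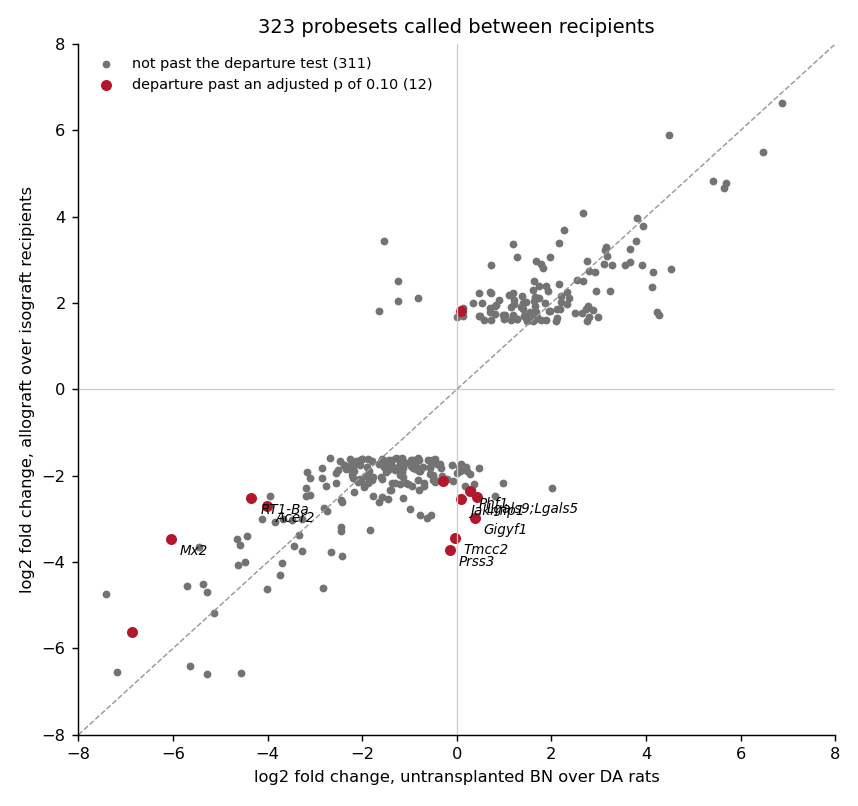
Log2 fold change between allograft and isograft recipients (vertical axis) against that between untransplanted BN and DA rats (horizontal axis) for the 323 called probesets, with the dashed line at equal values. Red points mark the 12 probesets whose 2 differences departed from each other at an adjusted p of at most 0.10, labelled where they carry a named gene, and most other points lie in the upper right and lower left.

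Among called genes that departed downward, a first set was low in allograft recipients alone. Jakmip1, a microtubule-associated protein, measured 0.203, 0.133, 0.194, 0.322 and 0.146 array medians in QR3 to QR7 and 0.798 to 1.46 in isograft recipients, 0.902 to 1.22 in untransplanted BN and 0.922 to 0.989 in untransplanted DA rats. The recipients differed by -2.53 (SE 0.19) and the untransplanted rats by 0.09 (SE 0.28), a departure of -2.62 (SE 0.33, adjusted p = 0.00166). Phf1, a reader of histone methylation, measured 0.860, 0.817, 0.524, 0.867 and 1.09 against 3.01 to 8.08 in isograft recipients, 5.23 to 7.73 in untransplanted BN and 4.68 to 6.56 in DA rats (departure -2.64, SE 0.41, adjusted p = 0.00978). Gigyf1, a protein of translational repression, measured 0.106 to 0.345 against 0.725 to 2.42, 2.15 to 6.01 and 2.05 to 3.52 in the same order of groups (departure -3.36, SE 0.57, adjusted p = 0.0189). In each of these genes all 5 allograft recipients lay below all 15 other rats. Other probesets do not repeat the size: the brighter probeset of Jakmip1 differed by -0.66 in recipients and -0.45 in untransplanted rats, that of Gigyf1 by -0.45 (adjusted p = 0.204) and 0.06, and Phf1 has a single probeset.

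A second set was high in isograft recipients alone. Tmcc2, a transmembrane coiled-coil protein, measured 4.05, 7.30, 9.50, 4.37 and 3.64 array medians in allograft recipients, 26.7 to 117 (median 77.8) in isograft recipients, 3.20 to 4.33 in untransplanted BN and 3.25 to 5.51 in untransplanted DA rats. The departure was -3.40 (SE 0.62, adjusted p = 0.0321). Prss3 measured 0.0803 to 0.221 in allograft and 0.820 to 5.07 in isograft recipients and 0.109 to 0.329 in the untransplanted rats (departure -3.56, SE 0.75, adjusted p = 0.0698). The probeset shared by Lgals5, a galectin of rat red cells, and Lgals9 measured 8.07, 11.1, 15.3, 7.51 and 6.63 against 23.6 to 109 (median 70.3) in isograft recipients and 8.28 to 13.9 in untransplanted rats, a difference of -2.48 (SE 0.36) and a departure of -2.92 (SE 0.63, adjusted p = 0.0771). This departure did not pass without QR3, QR4, QR6, QR7, QR12, QR17, QR21 or any of the 6 untransplanted rats (adjusted p of 0.101 to 0.195), nor without moderation (0.117). In all 3 the isograft recipients lay above every other rat. Isograft recipients and untransplanted DA rats belong to different batches, so that a transplant and a batch cannot be told apart in that step.

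The named genes whose departure ran upward were lower in BN rats in both comparisons, by less in recipients. Among the other upward departures this was not counted. Mx2 measured 0.216 to 0.427 in untransplanted BN and 13.8 to 22.4 in untransplanted DA rats, a difference of -6.05 (SE 0.36) that departed by 2.58 (SE 0.43, adjusted p = 0.0175). Acer2, an alkaline ceramidase, measured 0.576 to 0.849 against 3.73 to 5.37 in recipients (-2.70, SE 0.14) and 0.277 to 0.453 against 5.64 to 6.51 in untransplanted rats (-4.01, SE 0.21, departure 1.31, SE 0.25, adjusted p = 0.0408). The low pair of RT1-Ba probesets departed by 1.85 and 1.84 (adjusted p = 0.0859 and 0.0752). The departures of an RT1-Ba probeset, Acer2 and Ms4a7 did not pass after quantile normalization (adjusted p up to 0.533), and without untransplanted BN rat 3 only 53 of all probesets departed, with those of Prss3, Jchain, RT1-Ba, Acer2, the galectin probeset and Ms4a7 lost.

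Of 6 genes with PCR assays, Itgal, Ccl9, S100a9 and the galectin probeset were called on the arrays. Gzmb was not called: its brighter probeset did not pass, and the other passed the adjusted p at -0.64 (SE 0.19). Prss1, a trypsin, by the probeset that carries this symbol in the annotation used here, measured 0.0387, 0.141, 0.321, 0.0632 and 0.0478 array medians against 0.0627 to 1.08 (median 0.509), lower by 2.33 (SE 0.67, adjusted p = 0.0263) on signals below the array median on most arrays, whereas the trypsin probeset annotated as Prss3 was called. For S100a9 the untransplanted BN rats (1.11 to 1.82) lay below the untransplanted DA rats (4.31 to 5.08), the opposite order to that of the recipients. That difference of -1.65 (SE 0.73) did not pass (adjusted p = 0.231), and neither did the departure of 3.48 (SE 0.88, adjusted p = 0.169).

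The spread within groups was similar apart from QR3. Over 16269 probesets past the signal criterion the median SD of the log2 level was 0.25 among the 5 allograft and 0.29 among the 9 isograft recipients, and it was above 1 for 231 and 190 probesets. Among the genes with the largest SD in allograft recipients, 4 were low in QR3. Zfp451, a zinc finger protein, measured 0.0357 in QR3 and 1.04 to 3.33 in the other 4, Ankrd11, a chromatin regulator, 0.0596 against 2.25 to 4.5, Akap9, a scaffold of the Golgi and centrosome, 0.0437 against 1.05 to 1.56, and Dpm1, a mannose transferase subunit, 0.0402 against 0.829 to 1.33. Each of these genes has other probesets, and none of the 4 passed between recipients (adjusted p of 0.272 to 0.414).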

How the data were processed

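Total RNA of PBMC was amplified (MessageAmp II) and hybridised to RAE230 2.0 arrays. Per the labels, the authors computed a signal intensity for each probeset in MAS5 (version not given in the sources used here), and scaled each array to a trimmed mean near 100.03, without the lowest and highest 2%. Arrays are limited in precision by their number, and present calls were not used here.

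From the deposited intensities, 57 control probesets were left out, each array was divided by its median and transformed to log2. The 20 PBMC arrays were fitted in limma 3.58.1 (R 4.3.3, lmFit and eBayes) with a mean per group, and p-values were adjusted over 31042 probesets. The required level of 1 array median on 50% of the arrays of either group takes the place of present calls. Each array is a rat of its own, and the replicate error is that between rats. The fit was tested on simulated data. Of the probesets 20826 have 1 symbol, 436 several and 9780 none, and 20758 matched the GRCr8 gene table.

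The comparison, its members and 24 gene lists were chosen with earlier results of these data known, so no list was tested. Named are the 12 called genes that rose and the 12 that fell most without overlap, up to 4 changed members per list, called genes with a departure, 6 genes measured by PCR, and genes with the largest spread. Alternatives were quantile normalization, 0.25 array medians added before log2, a 65th percentile or no signal criterion, the 14 recipient arrays alone, no moderation, the probeset with the lowest p, leaving out each array and, chosen after seeing the data, the signals as deposited. Untransplanted rats with the same number did not deviate together (correlations of 0.00, 0.00 and 0.04), and recipients share no number.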

Additional observations from a re-analysis of the deposited data

Results flagged for a closer look

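A single array lay far from the rest of its group for 28 of 280 sets of values (116 named probesets and 24 list means, in each group of recipients), where chance gives about 1 in 20. Zfp451, Ankrd11, Akap9, Dpm1 and Ms4a7 were named for their spread among allograft recipients, which favours their place here. Values here are log2 of array medians. Allograft recipient QR3 was high for the means of the class I (4.13) and class II lists (4.91) and for RT1-Ba (6.95), Fxyd2 (5.24), Itga2b (5.13), Itga6 (4.45) and Itgam (3.75), and low for Zfp451 (-4.81), Ankrd11 (-4.07), Akap9 (-4.51) and Dpm1 (-4.64). QR5 was high for the mean of the neutrophil list (0.97), S100a8 (6.54), S100a9 (6.79), Camp (-1.99), Ass1 (3.95) and Ptgr1 (2.00), and low for Oas1b (-2.06) and Ms4a7 (-3.46). QR6 was low for Ccr2 (3.57) and QR7 high for Mest (-2.10). Among isograft recipients, QR17 was high for the chemokine list (0.61) and low for Plvap, a protein of endothelial diaphragms (-1.31). QR21 was low for the cytokine list (0.94), Ptgr1 (-3.46) and Prss1 (-4.00). QR14 was low for Camp (-4.29) and QR16 high for Itga2b (6.36).

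The difference between recipients departed from that between untransplanted rats, by a test of the departure itself, for 12 named probesets. It was more negative in recipients for Prss3 (-3.56), Tmcc2 (-3.40), Gigyf1 (-3.36), the probeset of Lgals9 and Lgals5 (-2.92), Phf1 (-2.64), Jakmip1 (-2.62) and Jchain (-2.11). It was more positive for Ms4a7 (5.21), Mx2 (2.58), both low probesets of RT1-Ba (1.85 and 1.84) and Acer2 (1.31).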

How the results depend on the processing

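The count of 323 called probesets lay between 317 and 340 without any single recipient (119 to 137 higher, 180 to 221 lower) and within 1.5 times under quantile normalization (372), the 14 recipient arrays alone (321), no moderation (321) and the signals as deposited (319). It fell to 205 with 0.25 array medians added (74 higher, 131 lower) and rose to 597 with no signal criterion (267 and 330). With the criterion at the 65th percentile, 219 were called, of which 83 higher. Fewer or more weak probesets can be called by construction of these settings. Between untransplanted rats 199 were called at the 65th percentile, 808 with no criterion and 313 to 368 without any of these rats. Probesets past the adjusted p alone numbered 4226 to 6488 without any recipient, and list members past it 228 to 278 beside 272. Departures, 108 in all, were the least stable: 53 without untransplanted BN rat 3, 67 without DA rat 1, 69 and 70 without allograft recipients QR6 and QR4, and 164 without DA rat 3, from 53 to 164 over all arrays. The cause was not tested. With the replicate number of the untransplanted rats as a block, 97 departed and 327 were called between untransplanted rats, and among the 12 named departures those of an RT1-Ba probeset and of the galectin probeset were lost (adjusted p = 0.12 for each). Of 52 named probesets called, all 52 were called without any isograft recipient, with the 14 arrays alone and without moderation, and 49 after quantile normalization, with 0.25 array medians added and without QR3. At the 65th percentile 38 of the 52 remained, and 14 weak ones were lost, among them Bglap, Mest, Prss3, C1qb, C1qc, Ccl9, Gigyf1 and Jakmip1. Without moderation 7 of the 12 named departures passed. Those of Mx2, Tmcc2, Gigyf1, Phf1 and Jakmip1 passed without any single array, while that of Prss3 was lost without QR4, QR6, QR7, BN rats 2 and 3 or DA rats 1 and 3, that of Ms4a7 without QR4, QR6, QR7, BN rats 2 and 3 or DA rats 1 and 2, that of Acer2 without BN rat 3 or DA rat 1, that of Jchain without BN rat 3, and at least 1 of both RT1-Ba departures without any of 15 arrays. The Ms4a7 difference ranged from -0.58 to 0.80 without any single recipient and changed sign without QR5, to 0.80. Weak signals in one group limit folds, among them those of Nqo2, Bglap, Serpinb11, LOC100910237, Myo5c, Dguok, Mest, Asb11 and Prss3.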

Other observations

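Lists of rarer blood cells and of tissue cells held the following differences. Of 15 measured genes of eosinophils, basophils and mast cells 1 rose and 3 fell, and only 4 of the 15 reached the signal criterion. Hdc, which makes histamine, measured 0.879, 1.19, 0.337, 0.779 and 0.864 array medians in allograft recipients against 0.230 to 0.417 in isograft recipients (log2 fold change 1.23, SE 0.25, limma adjusted p = 0.00255), while Cma1, the chymase of mast cells, was lower at 0.0663 to 0.154 against 0.228 to 1.45 (-2.36, SE 0.50). Of 11 endothelial genes 3 rose (27.3%, beside 7.72% of all genes) and 1 fell. Among those that rose was Eng, a co-receptor for transforming growth factor beta that monocytes also carry, at 0.866 to 2.22 against 0.0964 to 0.717 (1.92, SE 0.41). Of 19 heart muscle genes only Tnnc1 passed (0.65, SE 0.20), and it did not without QR3 (adjusted p = 0.106) or QR5 (0.102).

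On the array median scale, the shares of cell death and immediate early genes that passed lay near those of all genes (7.72% higher and 15.2% lower). Of 33 genes of apoptosis, necroptosis and pyroptosis 4 rose and 4 fell (12.1% each), and after quantile normalization 15 rose and 3 fell. Fas, the death receptor, was 1.75-fold higher (0.81, SE 0.20) at 3.45 to 5.04 against 1.39 to 3.37 array medians, and Bcl2, which blocks mitochondrial apoptosis, was 1.75-fold lower (-0.80, SE 0.23). Of 29 immediate early genes 3 rose (10.3%) and 4 fell (13.8%). Jun measured 5.70, 3.71, 4.43, 2.93 and 2.95 against 1.30 to 2.67 (median 1.94) and was 2.01-fold higher (1.01, SE 0.18, limma adjusted p = 0.000677), while Myc was 1.77-fold lower (-0.82, SE 0.15), both without overlap. In untransplanted rats of both strains Jun measured 6.75 to 8.05 and Myc 21 to 30.5, above every recipient for Jun and above all but the highest isograft recipient (21.8) for Myc, and this step between transplanted and untransplanted rats cannot be told apart from the batch.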
